A study of Mus musculus with 2 samples.

Results

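The markers described here are 9 genes used as markers of the formative and primed states, which follow the naive state of mouse embryonic stem cells (mESCs). They are Fgf5, Otx2, Pou3f1, Zic2, Lin28a, Lin28b, Foxd3, Utf1 and Grhl2. They were taken by symbol from a table of 18888 genes, in which all 9 have a row. All 9 had at least 1 FPKM (fragments per kilobase of gene, scaled to the mapped fragments of the library) in at least 1 library, as did 12263 genes of the table. The table compares PB mESCs, 46C cells with the empty PiggyBac vector, and PB-TERRA mESCs, 46C cells in which the same vector expresses polyadenylated TERRA, the telomeric repeat RNA. Both carry a PiggyBac insertion, grew on gelatin in a medium that the labels call conventional (the study's methods give serum with LIF for routine culture) and were at passages 21 to 24. 46C is a mouse embryonic stem cell line with a GFP reporter at Sox1, and the sources used here do not give the promoter that drives TERRA or whether the cells were a pool or a clone. Total RNA of each was sequenced as 1 library, so there is no replicate spread, no value has a replicate check and every comparison is between 2 libraries.

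Naive mESCs resemble the epiblast of the embryo before implantation. On their way to differentiation they pass through a formative state, close to the epiblast just after implantation, and then a primed state. On this path the factors of the naive network are switched off, while OTX2 and POU3F1 (also called OCT6) help to move the core factor OCT4 to other enhancers, and FGF5 and other genes of the later epiblast come on. Several of the 9 markers, such as Utf1, Lin28a and Foxd3, are also expressed in undifferentiated mESCs.

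Levels of the 9 markers spanned 157-fold in the PB library, from 2.46 FPKM for Fgf5 to 387 FPKM for Utf1. Among all genes of the table, 45.1% had a lower value than Fgf5 in PB and 99.1% a lower value than Utf1. Utf1 and Lin28a, at 387 and 148 FPKM, made up 87.7% of the summed level of the markers in PB. Below them came Pou3f1 at 18.5, Zic2 at 18.3, Otx2 at 11.6, Grhl2 at 9.66, Lin28b at 9.01 and Foxd3 at 5.72 FPKM. Neighbours in this order lay apart beyond counting error, except Pou3f1 with Zic2 and Grhl2 with Lin28b, whose 95% Poisson intervals overlapped. In the PB-TERRA library the order was Utf1, Lin28a, Pou3f1, Zic2, Grhl2, Lin28b, Otx2, Foxd3 and Fgf5. There the intervals overlapped for Zic2 with Grhl2 and for Lin28b with Otx2. Otx2 moved from place 5 to place 7 and passed below both Grhl2 and Lin28b. The plot of levels by library shows both orders.

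**Figure D1:**
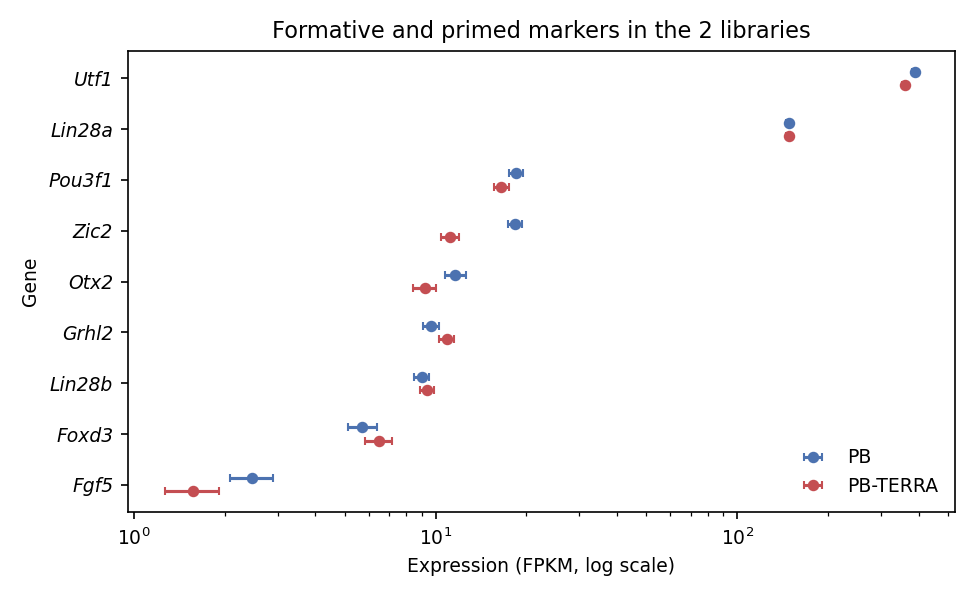
Level of each marker in the PB (blue) and PB-TERRA (red) library, in FPKM on a log axis, with exact 95% Poisson intervals of the estimated reads, which cover counting error only. The blue and red intervals lie apart for Zic2, Fgf5, Otx2, Pou3f1, Utf1 and Grhl2, with PB-TERRA lower in all of these but Grhl2.

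The question of the comparison is whether expression of TERRA goes with another level of these markers. Zic2, Fgf5 and Otx2 were lower in the PB-TERRA library, with log2 ratios (PB-TERRA over PB, of FPKM + 0.1) of -0.71, -0.62 and -0.33. Pou3f1 and Utf1 were lower by less, at -0.16 and -0.11, and Grhl2 was higher at 0.17. Foxd3 had 0.18, Lin28b 0.06 and Lin28a -0.00068, and the counting intervals of these 3 included 0. Of the 9 log2 ratios 6 were negative and 3 positive, with a median of -0.11, beside -0.0044 for all genes past the filter of 1 FPKM. The median was nearer 0 under 4 other settings, between -0.069 (FPKM rescaled to TPM) and -0.049 (trends of GC content and length taken off). None of the markers reached a log2 ratio of 1 in either direction (0 higher and 0 lower), which 0.440% of the genes past the filter did upward and 0.473% downward. At a log2 ratio of -0.5 or below were 2 markers, Zic2 and Fgf5, beside 2.37% of all genes past the filter, and at 0.5 or above were 0, beside 2.30%. The 95% interval of the read ratio lay below 0 for 5 markers and above 0 for 1, where 17.6% and 18.2% of all genes past the filter lay. These intervals are exact binomial (Clopper-Pearson), rest on reads estimated from the FPKM, and compare the libraries, not the conditions. The members' estimated reads ran from 148 to 12338 in PB and from 95 to 12394 in PB-TERRA.

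**Figure D2:**
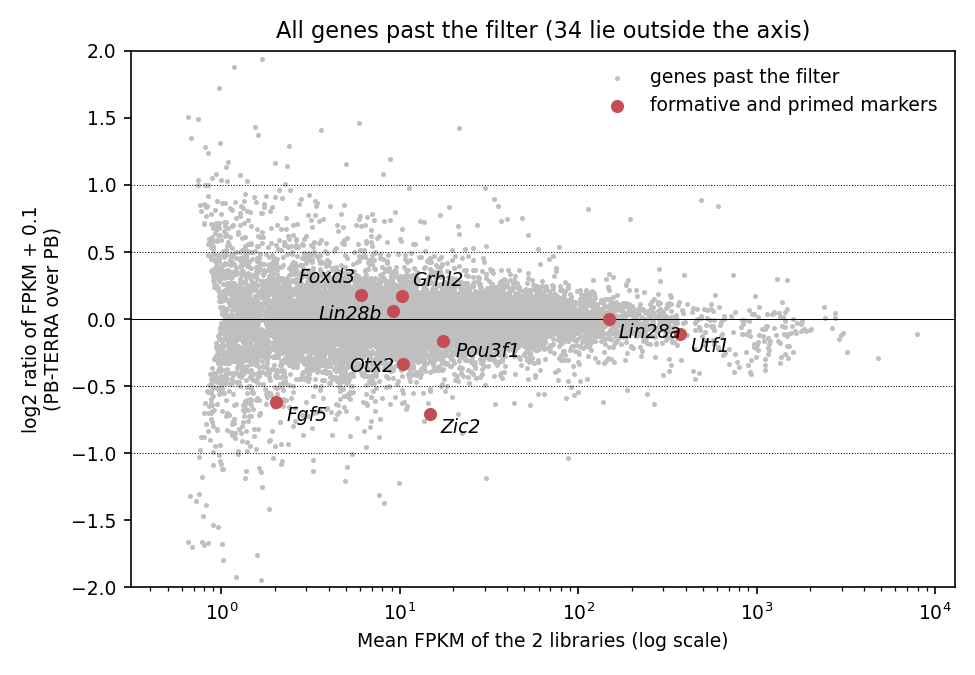
log2 ratio of FPKM + 0.1 (PB-TERRA over PB) against the mean FPKM of the libraries on a log axis, for the 12263 genes past the filter (grey) and the 9 markers (red), of which 34 grey genes lie outside the axis. Zic2 lies at the lower edge of the genes of its level, while Lin28a, Lin28b and Utf1 lie within the mass of genes.

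Fgf5 encodes a secreted fibroblast growth factor and is the classical marker of the epiblast after implantation. It was the least abundant of the 9, with 2.46 FPKM in PB and 1.57 FPKM in PB-TERRA, from about 148 and 95 reads. PB-TERRA was the lower library, and the Poisson intervals of its level, 2.08 to 2.89 FPKM in PB and 1.27 to 1.92 FPKM in PB-TERRA, did not overlap. The ratio of FPKM + 0.1 was 0.652, and the 95% interval of the log2 read ratio was -1.03 to -0.27. Of 2784 other genes within 2-fold of its mean level, 98 had a log2 ratio as low or lower. The pseudocount moved this value most, to -0.43 with 1 FPKM added. On the mouse genome GRCm38 (GENCODE M21) the gene lies on chromosome 5 from 98254184 to 98277030, on the + strand, and overlaps no other annotated gene.

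The 250 bases before the start of Fgf5 are printed, with the 30 bases around 1 motif before a start of Utf1 and of Otx2. TERRA is an RNA of telomeric repeats, written UUAGGG, and among the marker promoters available here those of Utf1 and of the last of the 4 listed starts of Otx2 hold TTAGGG or its complement, while that of Fgf5 is shown for its base content. Sequences come from a table of RefSeq promoters on GRCm38.p6, in which 6 of the 9 markers were matched, with 9 starts in all. The search covered TTAGGG, the octamer ATGCAAAT read by POU factors, TAATCC read by OTX factors and TATAAA, on both strands of the 250 bases, and capitals mark a match. TTAGGG or its reverse complement CCCTAA was found before 2 of the 9 starts and before 9.32% of the 32851 starts in that table. ATGCAAAT was found before 0 of the 9 (1.60% of all), and TAATCC and TATAAA before 1 each, both of Otx2 (6.25% and 12.4% of all). A match of letters is not a site, and no binding was measured. The Fgf5 stretch has 70.8% G and C with 24 CpG pairs, against medians of 52.4% and 6 over all starts. Foxd3 has 65.6% and 21, Utf1 61.6% and 14, and Lin28a 61.2% and 7. The first listed start of Otx2 has 42.0% and 6 (its last 53.6% and 9), and Lin28b 39.2% and 6.
Fgf5, chr5:98253934-98254183, + strand: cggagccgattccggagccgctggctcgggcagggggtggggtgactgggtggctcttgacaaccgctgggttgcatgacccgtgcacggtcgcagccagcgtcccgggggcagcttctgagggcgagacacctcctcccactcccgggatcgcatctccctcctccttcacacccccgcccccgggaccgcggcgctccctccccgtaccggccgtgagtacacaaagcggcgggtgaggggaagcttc
Otx2, last listed start, chr14:48662876-48662905, - strand: ctttttttaagtTTAGGGtgggggtgggga
Utf1, chr7:139943631-139943660, + strand: caggtcctgggtCCCTAAggaaaggactag

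FGF5 signals through FGF receptors to ERK, and 14 genes of this route were listed. In the PB-TERRA library 10 had the higher value and 4 the lower, with a median log2 ratio of 0.08. The intervals of 8 lay above 0 and those of 2 below. The most abundant were Etv5 (133 and 136 FPKM, log2 ratio 0.02) and Spry2, a feedback inhibitor (102 and 109 FPKM, 0.09). The highest log2 ratio was that of Etv4, a transcription factor induced by ERK, at 0.32, from 65.1 to 81.5 FPKM. The lowest was that of Mapk3, which encodes ERK1, at -0.15, from 58.8 to 53.0 FPKM. Of the FGF genes, 4 were listed as relatives of Fgf5. They include Fgf4, the main FGF of undifferentiated mESCs, at 31.9 and 37.1 FPKM (log2 ratio 0.22, interval 0.14 to 0.30), and Fgf17 at 31.8 and 28.3 FPKM (-0.17, interval -0.29 to -0.05). Fgf15 had 5.24 and 5.56 FPKM, and Fgf8 had 2.28 and 1.51 FPKM, a log2 ratio of -0.56 near that of Fgf5, from about 57 and 38 reads with an interval from -1.22 to 0.03.

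Among the transcription factors, Zic2 had the lowest log2 ratio of the 9. Zic2 is a zinc finger factor that sits at enhancers in mESCs and in the later epiblast. Its level was 18.3 FPKM in PB and 11.2 FPKM in PB-TERRA, from about 1293 and 792 reads. PB-TERRA was the lower library and the intervals of the level did not overlap. The ratio was 0.612, and the 95% interval of the log2 read ratio was -0.84 to -0.59. Of 4438 other genes within 2-fold of its mean level, 7 had a log2 ratio as low or lower. Zic2 lies on chromosome 14 from 122475435 to 122479852 (GRCm38, + strand), and none of the 50-base stretches of its transcript occurs in another annotated transcript (0 of 2391).

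Zic5, a family member that lies 9.76 kb from Zic2 on the opposite strand of chromosome 14, had 8.64 FPKM in PB and 6.03 FPKM in PB-TERRA. Its log2 ratio was -0.51, with a 95% interval of the reads from -0.72 to -0.32. Zic1, with about 7 and 13 reads, did not reach 1 FPKM. Both genes of the neighbouring pair, Zic2 and Zic5, were lower in the PB-TERRA library.

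Otx2 encodes a homeodomain factor needed for the exit from the naive state. It lies on chromosome 14 from 48657677 to 48673819 (GRCm38, - strand) and overlaps Otx2os1 on the opposite strand and Gm49154 on the same strand. Its level was 11.6 FPKM in PB and 9.21 FPKM in PB-TERRA, from about 612 and 487 reads. The ratio was 0.793, and the 95% interval of the log2 read ratio was -0.51 to -0.16. Of 4569 other genes of like level, 154 were as low or lower. Its relative Otx1 had about 5 and 12 reads, and Crx was at the floor of 0.01 FPKM in both libraries. A value at the floor was set to 0 reads, but in a long gene it can also hold a very few. A count of 0 in itself allows up to 3 reads. Pou3f1, the POU factor that works with OTX2 (chromosome 4, 124656807 to 124660655, + strand), had 18.5 and 16.5 FPKM, a ratio of 0.894 with an interval of the log2 read ratio from -0.28 to -0.05. Its transcript has 63.9% G and C, and its log2 ratio was -0.10 with the trends of GC content and length taken off. The other POU class III genes were nearly silent, with about 25 and 16 reads for Pou3f4 and 5 and 2 for Pou3f3. Pou3f2 was at the floor in both libraries. Of the 50-base stretches of Pou3f1, 7.42% also occur in Gm2164, a gene on the opposite strand, and the kit does not mark the strand, so reads there could come from either gene.

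Foxd3 and Grhl2 had the highest log2 ratios of the 9. Foxd3 (chromosome 4, 99656299 to 99658622, + strand), a forkhead factor that represses and primes enhancers in pluripotent cells, had 5.72 FPKM in PB and 6.48 FPKM in PB-TERRA. Its log2 ratio was 0.18, with an interval from -0.04 to 0.40, so a difference was not detectable at about 320 and 364 reads. Its relatives Foxd1, Foxd2 and Foxd4 had 6 reads or fewer in each library. Grhl2 encodes a grainyhead factor that opens enhancers of epithelial genes in the formative state (chromosome 15, 37233036 to 37363569, + strand). It had 9.66 and 10.9 FPKM, and its interval, 0.06 to 0.29, lay above 0. Among its relatives, Grhl3 had 12.4 and 11.7 FPKM (log2 ratio -0.08) and Grhl1 4.27 and 3.72 FPKM (-0.19), with intervals that included 0. The table lists positive regulation of telomerase activity among the processes of Grhl2, and it is the only marker of the 8 with process terms to carry the word telomerase, which 14 of 7927 annotated genes past the filter carry.

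Of 18 epithelial genes linked to GRHL2, 14 were lower and 4 higher in PB-TERRA, with a median log2 ratio of -0.08, which was -0.04 with FPKM as TPM or with the trends of GC content and length taken off. The intervals of 7 lay below 0 and those of 0 above. Cdh1, which encodes the adhesion protein E-cadherin, had 164 and 153 FPKM (log2 ratio -0.10), Krt8 142 and 141 FPKM (-0.01) and Krt18 112 and 116 FPKM (0.05). Cldn7, a tight junction gene, was lowest at -0.46, from 24.6 to 17.9 FPKM. Ovol2 was highest at 0.10, with an interval from -0.38 to 0.61. The interval of Grhl2 lay on the other side of 0 from the intervals of these 7 genes.

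**Figure D3:**
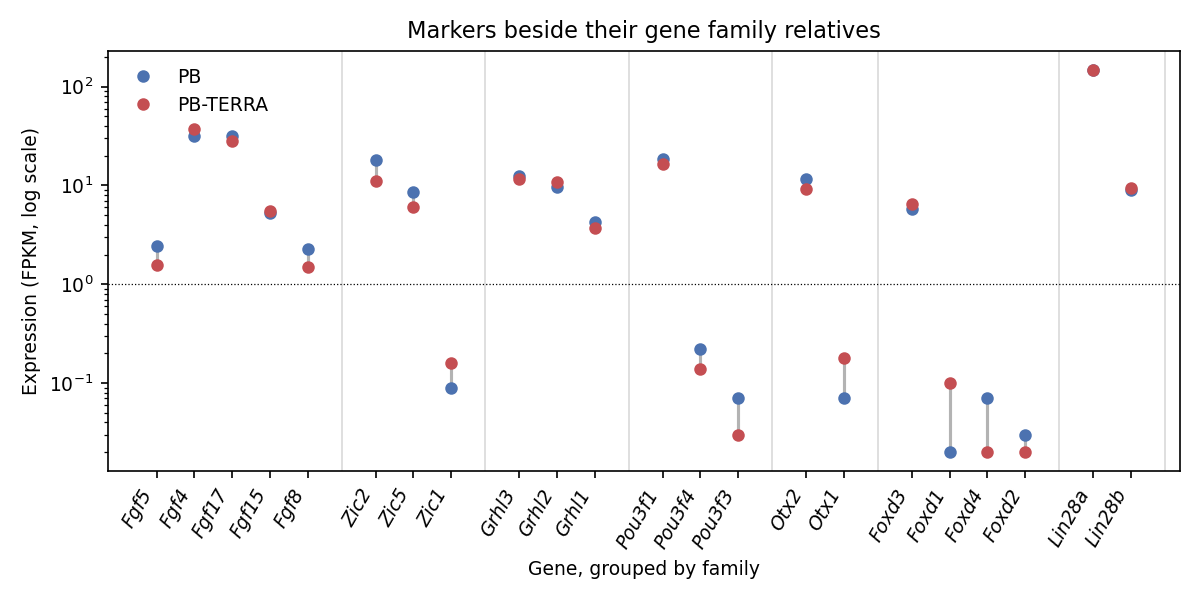
Level of the markers and of relatives from their gene families in the PB (blue) and PB-TERRA (red) library, in FPKM on a log axis, with 1 FPKM dotted. Pou3f1, Otx2 and Foxd3 were the only members of their families above 1 FPKM, among the genes drawn, while the FGF, ZIC and GRHL families had several (Crx and Pou3f2, listed at the floor, are not drawn).

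Utf1, a chromatin-bound cofactor of undifferentiated cells, was the most abundant marker, with 387 FPKM in PB and 359 FPKM in PB-TERRA. Its ratio was 0.928, and the interval of the log2 read ratio, -0.15 to -0.07, lay below 0. Its transcript has 63.5% G and C. After subtraction of the median over genes of like GC content and length, its log2 ratio was -0.0096. The gene lies on chromosome 7 from 139943789 to 139945112 (GRCm38, + strand) and overlaps no other annotated gene. Of 267 other genes within 2-fold of its level, 56 were as low or lower.

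The RNA-binding proteins LIN28A and LIN28B block the maturation of let-7, a family of miRNAs that holds back pluripotency genes, and let-7 in turn binds the RNA of both. Lin28a had 148 FPKM in both libraries, a log2 ratio of -0.00068 with an interval from -0.04 to 0.04. Lin28b, which was 16.4-fold less abundant than Lin28a in PB, had 9.01 and 9.38 FPKM, with an interval from -0.06 to 0.17. Neither paralog differed between the libraries beyond counting error. Lin28a lies on chromosome 4 from 134003330 to 134018841 and Lin28b on chromosome 10 from 45376620 to 45486395, both on the - strand (GRCm38). Their let-7 sites are shown because no other marker of the 9 holds one. The seed match, CTACCTC, which pairs with bases 2 to 8 of let-7, occurs 2 times in the 3′ untranslated region of Lin28a, 4 times in that of Lin28b and 0 times in that of the other 7 markers (longest coding transcript, GENCODE M21). Of 20945 annotated genes, 8.86% hold it. Capitals mark the seed in the miRNAs (RefSeq, GRCm38.p6) and the match in the sites (GRCm38), of which the first in each gene is shown with 2 targets, Hmga2 and Trim71.
let-7a-5p: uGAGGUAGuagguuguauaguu
let-7g-5p: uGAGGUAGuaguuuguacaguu
Lin28a site, chr4:134005189-134005211, - strand, exon 4 of 4: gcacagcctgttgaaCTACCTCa
Lin28b site, chr10:45381022-45381044, - strand, exon 5 of 5: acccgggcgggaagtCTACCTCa
Hmga2 site, chr10:120364224-120364246, - strand, exon 6 of 6: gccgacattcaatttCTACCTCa
Trim71 site, chr9:114512472-114512494, - strand, exon 4 of 4: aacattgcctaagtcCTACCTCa

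Of 18 other genes of the LIN28 and let-7 axis, PB-TERRA had the higher value for 10 and the lower for 8, with a median log2 ratio of 0.03. The intervals of 7 lay above 0 and those of 5 below. The architectural factor Hmga2, a let-7 target with 4 seed matches, was highest at 0.39, from 9.11 to 12.0 FPKM, and Trim71, with 4 matches, had 0.17. Nr6a1, with the most matches at 8, had -0.10 with an interval from -0.17 to -0.04. Trim71 and Nr6a1 were chosen after their values were seen. The RNA-binding protein gene Igf2bp3, with 1 match, was lowest at -0.47, from 14.3 to 10.3 FPKM. Mycn had 108 and 91.5 FPKM (-0.24), Igf2bp1 102 and 106 FPKM (0.06) and Drosha, which cuts miRNA precursors, 78.8 and 79.8 FPKM (0.02). The 10 genes with a seed match had a median of 0.05, with 6 higher and 4 lower, and the 8 without had -0.01, with 4 and 4. The let-7 miRNAs themselves are not analysed here.

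A wider list of 30 formative and primed genes was described in the same way, and 26 passed the filter. The value of 16 was lower in PB-TERRA and that of 10 higher, with a median log2 ratio of -0.08, which was -0.04 with FPKM rescaled to TPM and -0.02 with the trends of GC content and length taken off. The intervals of 11 lay below 0 and those of 4 above. The kinase gene Pim2 was lowest at -0.61, from 166 to 108 FPKM. The highest was Sox3, a SOX factor of the epiblast and neural plate, at 0.55, from 1.29 to 1.93 FPKM. The NODAL co-receptor Tdgf1, the most abundant, had 314 and 278 FPKM (-0.18), and the methyltransferase cofactor Dnmt3l 197 and 186 FPKM (-0.08). Pim2 was the third by mean level. Lefty2, Dnmt3b and Nodal were chosen after their values were seen, with log2 ratios of -0.45, -0.17 and 0.10, and the interval of Nodal included 0.

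The naive pluripotency genes, among them core factors such as Pou5f1 and Sox2 that later states keep, had a median log2 ratio of 0.11. Of 20 listed, 19 passed the filter, and PB-TERRA was the higher library for 13 and the lower for 6. The intervals of 10 lay above 0 and those of 4 below. Tbx3 was highest at 0.64, from 16.8 to 26.1 FPKM, and Prdm14, a repressor that guards the naive state, was lowest at -0.36, from 6.30 to 4.90 FPKM. The most abundant were Dppa5a (1163 and 1040 FPKM, -0.16), Pou5f1, which encodes OCT4 (745 and 773 FPKM, 0.05), and Zfp42 (190 and 188 FPKM, -0.01). Each list went both ways, and the difference between the medians was not tested.

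**Figure D4:**
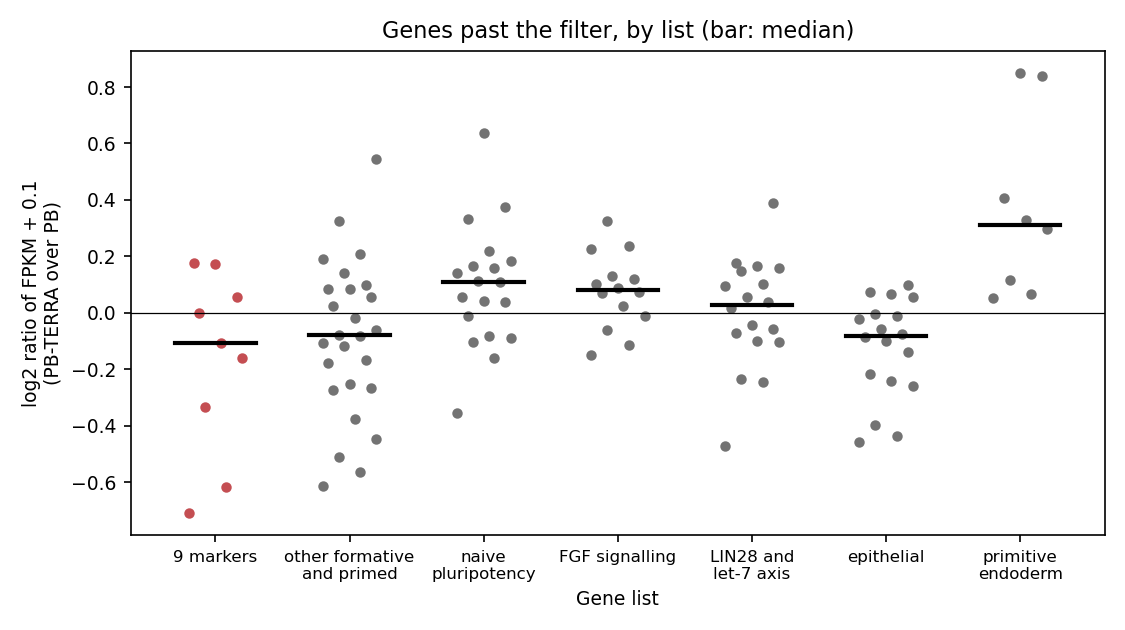
log2 ratio of FPKM + 0.1 (PB-TERRA over PB) of each gene past the filter, by list, with the median as a bar. The median lies at -0.11 for the 9 markers, -0.08 for the other formative and primed genes and 0.11 for naive genes, and each list shown but that of primitive endoderm, where Pdgfra passed the filter through PB-TERRA alone and Hnf4a did not pass it, holds genes on both sides of 0.

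Markers of mESC identity were present in both libraries, with Sox2 at 134 and 145 FPKM and Nanog at 186 and 173 FPKM. Of the lists of other cell types, the primitive endoderm markers had a higher value in PB-TERRA for 9 of 10 genes, among them Gata6 (1.22 and 2.26 FPKM) and Pdgfra (0.51 and 1.0 FPKM), and the lower was Hnf4a. Their summed level was 138 FPKM in PB and 147 FPKM in PB-TERRA. Summed levels of the other lists were 90.2 and 78.5 FPKM for neural markers (5 higher, 4 lower and 1 equal), 18.2 and 16.7 FPKM for mesoderm and definitive endoderm markers (4 and 5), 39.6 and 38.6 FPKM for trophectoderm markers (5 and 2), and 20.3 and 24.3 FPKM for fibroblast markers (5 and 4). These counts take all measured genes, many of them under 1 FPKM. Sums can hide their members. Within the trophectoderm list Tfap2c had 21.9 and 18.6 FPKM, while Cdx2 had 1.19 and 2.13 FPKM (log2 ratio 0.79) and Hand1 1.36 and 2.65 FPKM (0.91). The collagen gene Col1a1 of the fibroblast list had 7.99 and 12.1 FPKM (0.60), and the intervals of Cdx2, Hand1 and Col1a1 lay above 0. In the trophectoderm list those of Tfap2c (-0.35 to -0.13) and Eomes (-0.46 to -0.10) lay below 0. Among the defining genes, Neurog2 was at the floor in PB with 1 read in PB-TERRA. Sox1 had 1.06 and 1.56 FPKM (log2 ratio 0.52, interval 0.18 to 0.93). Nes, the most abundant neural gene after Tubb3, had 27.3 and 20.9 FPKM (log2 ratio -0.38). The part of these cells in the values of the 9 markers was not tested. In RNA of whole cultures, fewer cells that express a gene and less RNA per cell cannot be told apart.

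**Figure D5:**
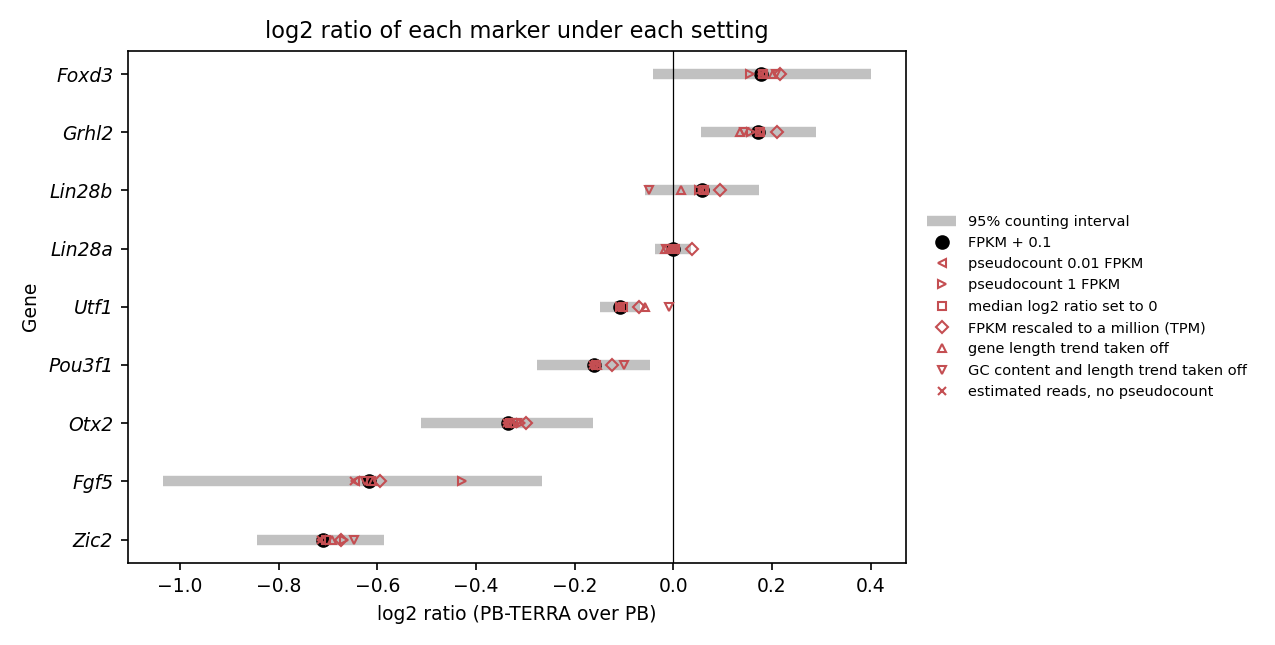
log2 ratio (PB-TERRA over PB) of each marker with 0.1 FPKM added (black), its 95% counting interval (grey bar) and the 7 other settings (red). Zic2, Fgf5, Otx2, Pou3f1 and Utf1 stay below 0 and Foxd3 and Grhl2 above 0 in all settings, while Lin28a and Lin28b lie on both sides.

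In the annotation of the table, 5 of the 8 markers with molecular function terms carry DNA binding (Foxd3, Grhl2, Lin28b, Otx2 and Pou3f1), beside 9.03% of annotated genes past the filter. RNA binding and miRNA processing are carried by Lin28a and Lin28b. Zic2 has no such terms in the table. Pou3f1, Lin28a and Foxd3 lie on chromosome 4, and Otx2 and Zic2 on chromosome 14. With the antisense and other overlapping genes counted, at most 2.59% of the 50-base stretches of any marker but Pou3f1 also occur in the transcript of another gene.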

How the data were processed

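The authors deposited 1 table with a value per gene for each of 2 libraries. Per the labels, RNA was taken with Trizol and made into libraries with a TruSeq kit for BGISEQ500 sequencing, and the submitters' processing notes name HISAT, Cufflinks and the build mm9. The header gives no unit. The deposited values were read as FPKM, rounded by the authors to 2 decimals with a floor of 0.01. The authors' fold changes, p-values, adjusted p-values and calls are also in the table and were not used, and TERRA was not analysed.

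Libraries were compared by log2((FPKM + 0.1 in PB-TERRA) / (FPKM + 0.1 in PB)). This scale shrinks the differences of weakly expressed genes. Genes under 1 FPKM in both libraries were left out. With 1 library per condition no p-value was computed. Reads were estimated from the FPKM alone. Low values of short genes fall on steps of 1 read, and 1 read value per library (40.4 in PB and 40.2 in PB-TERRA, in FPKM times bases) with 114 bases taken off the gene length brought 84.5% of 566 values in PB and 87.8% of 608 in PB-TERRA within 0.2 of a whole number. These constants trade off against each other. They gave about 24757510 reads in PB and 24871405 in PB-TERRA. Intervals are exact at 95% and cover counting error only. The computation was tested on simulated data.

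The 9 markers and all gene lists were chosen with earlier results of these data known. Named genes are the markers, the highest, the lowest and the 3 most abundant of each list past the filter, and family relatives, with exceptions given beside their values, of which some are not reported here. Counts cover the whole lists. Of marker lists of other cell types, those named were chosen after their values were seen. With 2 libraries no likeness of patterns was measured. Sequences and positions came from RefSeq and GENCODE M21 on GRCm38, which is not the authors' build, so gene models can differ. Alternatives were the pseudocount, the scaling, the filter, gene length (50 bins), GC content with length (10 by 10 bins, known for 94.3% of genes past the filter) and the interval. Computation used scipy 1.17.1 and numpy 2.4.6 under Python 3.11.15, with tables read by pandas 2.3.3 and plots drawn by matplotlib 3.10.9.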

Additional observations from a re-analysis of the deposited data

How the results depend on the processing

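The log2 ratios of Zic2 (-0.71 to -0.65), Fgf5 (-0.65 to -0.43), Otx2 (-0.34 to -0.30), Pou3f1 (-0.16 to -0.10), Utf1 (-0.11 to -0.0096), Foxd3 (0.15 to 0.22) and Grhl2 (0.14 to 0.21) kept their sign under the 7 alternatives tried. Lin28a was 0.04 with FPKM rescaled to TPM and 0.0037 with the median of all genes set to 0, and Lin28b was -0.05 with the trends of GC content and length taken off. Wilson intervals, and reads taken from the ends of the rounding of FPKM, left the interval of each of the 9 markers on the same side of 0 or across it. Of 258 values recomputed in all, 59 moved, and 35 of those that moved were medians of lists, the markers included. A median that changed sign was counted among those that moved. The median of the LIN28 and let-7 axis was -0.00058 with the length trend taken off, and with GC content and length taken off that of the wider formative and primed list was -0.02 and that of the epithelial genes -0.04. Where the mean had to reach 5 FPKM, the median of the trophectoderm markers went from 0.14 to -0.24, that of the neural markers from 0.0002 to -0.27 (-0.13 as TPM) and that of the primitive endoderm markers from 0.31 to 0.09. These settings change which genes are kept, and few passed the main filter (4 neural and 5 trophectoderm genes). Of the neural markers only Nes and Tubb3 reach a mean of 5 FPKM. With 1 library per condition, neither leaving out a replicate nor a paired analysis was possible.

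The median of the markers was -0.069 with FPKM rescaled to TPM, -0.057 with the length trend taken off, -0.049 with GC content and length taken off and -0.054 where the mean had to reach 5 FPKM. At a log2 ratio of -0.5 or below was 1 marker with 1 FPKM added (Zic2) and 1 where the mean had to reach 5 FPKM, which removes Fgf5. Genes at 1 or above and at -1 or below numbered 24 and 21 with 1 FPKM added, 124 and 110 with FPKM rescaled, 22 and 28 with GC content and length taken off, 263 and 250 with no filter and 7 and 10 where the mean had to reach 5 FPKM. At 0.5 or above and -0.5 or below they numbered 138 and 147 with 1 FPKM added and 557 and 438 with FPKM rescaled. With GC content and length taken off they numbered 203 and 187, and with no filter 1180 and 1102. Where the mean had to reach 5 FPKM they numbered 63 and 70. Rescaling to TPM raised the values in both libraries, where FPKM summed to 497560 and 484632, while the filter of 1 and the added 0.1 stayed. Genes weaker in FPKM therefore passed the filter in that setting. How much of the shifts this makes up was not tested. Fgf5 has the fewest reads of the markers, and depth limits it most.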
